A study of Camelina sativa with 41 samples.

Results

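Places in the Camelina sativa genome where DNA-binding peaks of 5 or more transcription factors met were examined. They were chosen by the measured peak positions themselves. The peak summits of all 20 factor lists were pooled and sorted along each chromosome, a new position was started wherever the distance to the previous summit was over 100 bp, and positions with summits from at least 5 different lists were kept. The 20 lists held 717159 peaks at 555003 positions, and 1211 of these positions had 5 or more factors, 0.218% of all positions. They held 6709 peaks, 0.935% of all peaks.

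Camelina sativa, a hexaploid relative of Arabidopsis, is grown for its seed oil. The peaks come from DNA affinity purification sequencing (DAP-seq), in which a Halo-tagged transcription factor is mixed with purified genomic DNA fragments and the fragments that stay with it are sequenced. Here the DNA came from a pool of leaves of the cultivar Suneson and had been amplified before use, which takes off methylation, and each factor had a single peak list, although the series text speaks of duplicates. The labels name 22 factors. No list of Csa17g034220, of Csa19g036630 or of the tag alone (Halo) was analysed here. Per the series text, the data of that pair of factors correlated highly with the Halo control. The same series holds messenger RNA counts of Suneson seeds at 5, 8 and 11 days post-anthesis (DPA), with 3 replicates per age and 15659011 to 46863553 counts per library. The files do not pair the gene IDs with names, so factors are given by ID, no role is stated for any of them, and the tissues could not be checked against marker genes.

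A transcription factor recognises a short DNA sequence, and members of a family often recognise the same one, so their sites can coincide. Places where many factors meet are also known from chromatin studies in living cells. In DAP-seq the DNA carries no chromatin, and a peak reports contact between the tagged protein and naked DNA only. No source used here names the genome build of the files and no genome was at hand, so neighbouring genes and the sequences at these positions are not described. Coordinates are given as the authors' files list them.

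The number of positions fell steeply with the number of factors that met. Of the 1211 positions, 943 had 5 factors, 199 had 6, 51 had 7, 11 had 8, 5 had 9 and 2 had 11. Outside the threshold there were 4367 positions with 4 factors, 20103 with 3, 96541 with 2 and 432781 in a single list. From 1 to 6 factors each added factor cut the number by 4.48 to 4.80 times, with 4.63 between 4 and 5 factors, so the threshold of 5 falls on no break in this decline. The step from 8 to 9 factors was smaller, at 2.2 times, on 5 and 11 positions.

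**Figure D1:**
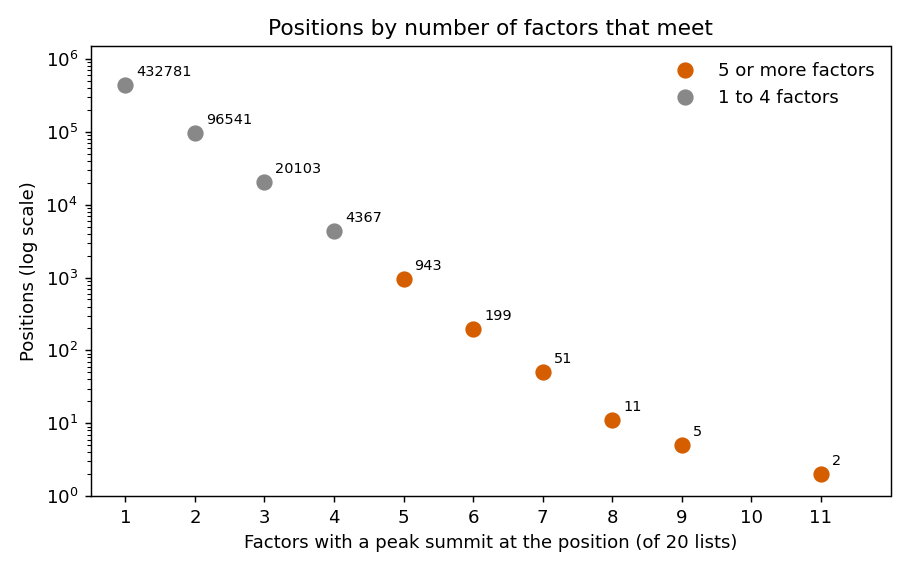
Number of positions (log scale) by the number of factors with a summit at the position, for 5 or more factors and for 1 to 4 factors. The points fall almost on a line from 432781 positions in a single list to 11 positions with 8 factors, and 2 positions held 11 factors.

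Because summits were chained, a position can be wider than the 100 bp that joins its neighbours. The distance from the first to the last summit had a median of 155 bp, with a range of 5 to 471 bp, and exceeded 100 bp at 962 positions (79.4%). At positions with 4 factors the median was 113 bp. All summits lay within 100 bp of each other at 249 positions and within 50 bp at 52. Within a single window of 100 bp, a count added after the data were seen, 5 or more factors were found at 371 positions. At 215 positions (17.8%) at least 1 factor had more than 1 summit.

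A pair of factors dominated the positions. Csa13g019570 had a summit at 939 of the 1211 positions (77.5%) and Csa01g013850 at 909 (75.1%), and both were present at 837 (69.1%). Only 200 positions (16.5%) held neither. Over all positions Csa13g019570 was found at 17.6% and Csa01g013850 at 14.2%. A position that must hold 5 factors holds any given factor more often by construction, so positions with 4 factors are the closer comparison: there Csa13g019570 was at 70.3% and Csa01g013850 at 66.3%. They too hold fewer factors each, so part of this rise is also built in. Leaving out 1 list lowered the number of positions to 453 without Csa13g019570, 482 without Csa01g013850, 743 without Csa02g073390 and 788 without Csa06g051300, and without Csa01g013850 the most frequent factor was Csa02g073390 (60.6%), not Csa13g019570. With Csa13g019570 and Csa01g013850 counted as 1 factor, 553 positions had 5 or more.

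The other long lists followed, in an order that was not that of their lengths. Csa02g073390, the longest list with 129638 peaks, was at 589 positions (48.6%). Csa06g051300, with 47458 peaks, was at 561 (46.3%), ahead of Csa06g004330 (474 positions, 39.1%) and Csa04g012470 (453, 37.4%), whose lists hold 92476 and 117085 peaks. Csa13g011780 was at 443 positions (36.6%), Csa13g021450 at 436 (36.0%), Csa09g088620 at 432 (35.7%) and Csa08g011090 at 361 (29.8%). The last of these stands out for its length: Csa08g011090 has 5259 peaks, and Csa13g021450 has 11761. Csa04g023980 was at 182 positions (15.03%) and Csa11g072230 at 179 (14.8%). The remaining 8 lists have under 2000 peaks each and were found at 7 to 119 positions.

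**Figure D2:**
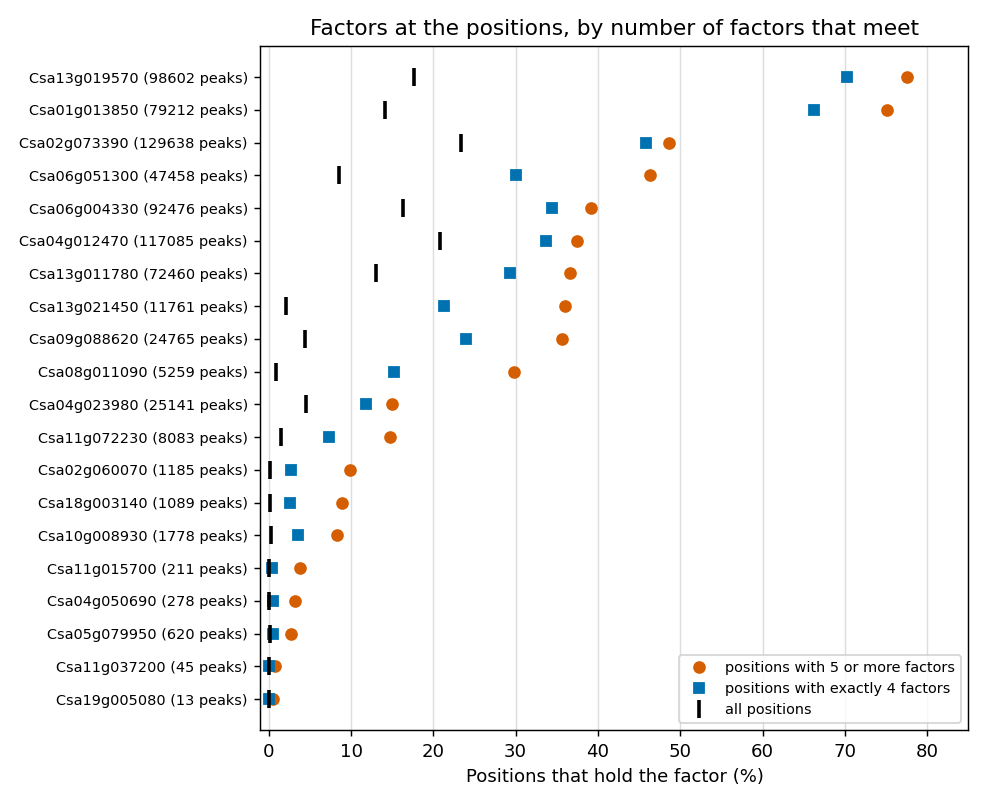
Percentage of positions that hold each factor, for positions with 5 or more factors, positions with exactly 4 factors and all positions, with the number of peaks of each list beside its name. Csa13g019570 (77.5%) and Csa01g013850 (75.1%) lead. For each of the 20 factors the share at positions with 5 or more factors is above that at positions with 4. Positions with more factors raise such shares by construction.

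Seen from the lists, the largest shares of peaks at these positions belonged to short ones. Against 0.935% of all peaks, Csa19g005080 had 7 of its 13 peaks there (53.8%, 95% Wilson interval 29.1% to 76.8%). Csa11g037200 had 10 of 45 (22.2%, 12.5% to 36.3%), and Csa11g015700 had 46 of 211 (21.8%, 16.8% to 27.8%). Csa04g050690 had 39 of 278 (14.03%), Csa02g060070 had 119 of 1185 (10.04%), Csa18g003140 had 108 of 1089 (9.92%), Csa10g008930 had 103 of 1778 (5.79%) and Csa05g079950 had 33 of 620 (5.32%). Taken as a group, the 8 lists with under 2000 peaks had 465 of 5219 peaks (8.91%) at these positions, against 6244 of 711940 (0.877%) for the 12 longer lists. The intervals cover counting error only, and whether peaks also occur there for the Halo tag alone was not tested.

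Among the 12 longer lists the share was highest for Csa08g011090, with 369 of its peaks (7.02%), and for Csa13g021450, with 452 (3.84%). That of Csa08g011090 was above those of the short lists Csa10g008930 (5.79%) and Csa05g079950 (5.32%). The share was 2.21% for Csa11g072230, 1.77% for Csa09g088620, 1.24% for Csa06g051300, 1.21% for Csa01g013850 and 1.02% for Csa13g019570. It was below the 0.935% of all peaks for 5 lists, from 0.752% for Csa04g023980 down to 0.409% for Csa04g012470. Thus the factors that were at most positions were not those that had most of their peaks there. Of the peaks of Csa04g012470, 76.9% were at positions of no other list, against 21.8% of those of Csa08g011090.

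Of the 190 possible pairs of factors, 178 were found together at 1 or more of the 1211 positions. After Csa13g019570 with Csa01g013850 (837 positions), the next pairs were Csa02g073390 with Csa13g019570 (413), Csa06g051300 with Csa13g019570 (401), Csa01g013850 with Csa02g073390 (388) and Csa01g013850 with Csa06g051300 (370). Csa13g021450 met Csa01g013850 at 361 positions and Csa13g019570 at 360, Csa13g011780 met Csa13g019570 at 344 and Csa01g013850 at 341, and Csa06g004330 met Csa13g019570 at 335. Each of the 10 most frequent pairs thus contained Csa13g019570 or Csa01g013850. The most frequent pair without them was Csa08g011090 with Csa13g021450, at 324 positions, which is 89.8% of the positions of Csa08g011090. These counts also reflect how often a pair met anywhere. Over all positions Csa13g019570 and Csa01g013850 met at 47108, and 1.78% of those had 5 or more factors. That was the lowest share among the 10 most frequent pairs, where the next lowest was 5.36%. Csa08g011090 and Csa13g021450 met at 3267 positions, of which 9.92% had 5 or more factors.

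The 4 rarest pairs among the 66 of the 12 longer lists all contained Csa04g023980 or Csa08g011090. Csa04g023980 met Csa11g072230 at 6 positions, Csa08g011090 at 18 and Csa13g021450 at 28. Csa06g004330, at 474 positions, met Csa08g011090, at 361, at 35 positions. Over all positions these 4 pairs, in the same order, met at only 44, 43, 99 and 104. Of those positions 13.6%, 41.9%, 28.3% and 33.7% had 5 or more factors. Of all positions with 2 or more factors, 0.991% had 5 or more. That share counts each position once. A position with more factors holds more pairs, which raises the shares of pairs by construction, so the 0.991% is not a like background for them.

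**Figure D3:**
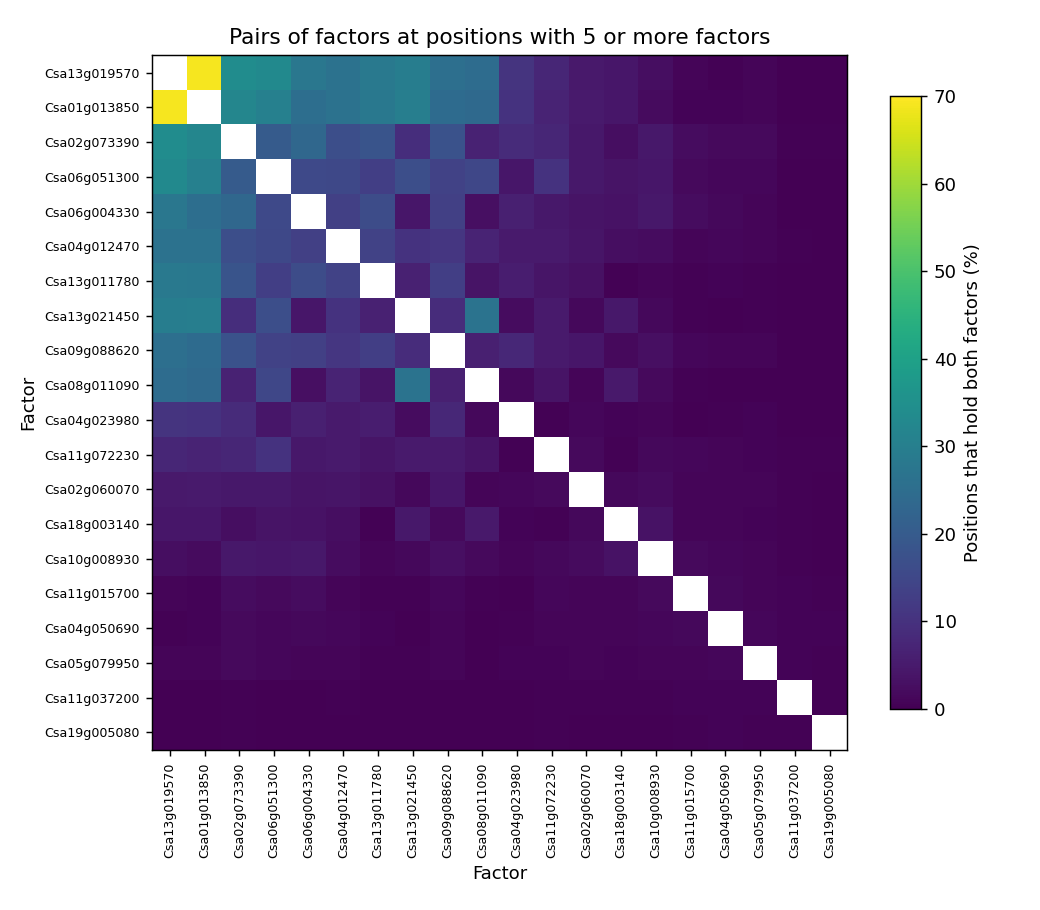
Percentage of the 1211 positions that hold both factors of a pair, for the 20 factors in order of their number of positions. The brightest cell is Csa13g019570 with Csa01g013850 (69.1%), the first 2 rows are the brightest, and Csa08g011090 with Csa13g021450 (26.8%) stands out among the other cells.

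Frequent pairs differed in how close their summits lay. The summits of Csa13g019570 and Csa01g013850 lay a median of 3 bp apart, and within 10 bp at 60.1% of the positions that held both. Those of Csa08g011090 and Csa13g021450 lay a median of 6 bp apart, and within 10 bp at 53.7%. For the other 9 of the 10 most frequent pairs, which join Csa13g019570 or Csa01g013850 to another factor, the median distance was 41 to 87.5 bp, and 4.07% to 16.1% lay within 10 bp. Some rarer pairs of short lists were close: Csa04g050690 and Csa11g015700 lay a median of 12 bp apart at 19 positions, and Csa02g060070 and Csa04g050690 16.5 bp at 12. At positions with 2 to 4 factors the summits of Csa13g019570 and Csa01g013850 lay a median of 0 bp apart and those of Csa08g011090 and Csa13g021450 1 bp. A wider position allows wider distances.

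The factors met in many different combinations. The 1211 positions held 543 exact combinations, and 387 of these were seen once. The most frequent was Csa01g013850, Csa06g051300, Csa08g011090, Csa13g019570 and Csa13g021450, at 68 positions. It joins both close pairs with Csa06g051300. The next was Csa01g013850, Csa02g073390, Csa06g004330, Csa13g011780 and Csa13g019570, at 32 positions, made of long lists only. At 27 positions Csa04g012470 took the place of Csa06g051300 beside both close pairs. The last 2 of the 5 most frequent had 23 positions each and joined Csa01g013850, Csa06g004330 and Csa13g019570 with Csa02g073390 and Csa06g051300, or with Csa04g012470 and Csa13g011780. Both close pairs were complete at 247 positions (20.4%), and 474 positions (39.1%) held only factors from the 9 lists of at least 20000 peaks. With each close pair counted as 1 factor, 448 of the 1211 positions had 5 or more.

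The authors' signal, which has no stated unit, was ranked within each list. A percentile of 50 is the middle of a list, whatever its length. Peaks at the positions had a median percentile of 58.9, against 55.7 at positions with 4 factors and 47.4 for peaks at positions of a single list. Of the 6709 peaks, 1088 (16.2%) were in the top 10% of their list and 534 (7.96%) in the bottom 10%, against 8.63% and 10.8% of the peaks at positions of a single list. At 636 positions (52.5%) at least 1 peak was in the top 10% of its list, and at 135 positions every peak was in its list's upper 50%. These are descriptions with no test, since the same peaks chose the positions.

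The difference in signal varied among factors. The median percentile at the positions was above that of the same list's peaks at positions of a single list for 17 of 20 factors, and above that at positions with 4 factors for 18 of the 19 that have both. Csa13g021450 had a signal of 33.4 to 303.1 at these positions with a median of 67.6, against a median of 53.2 over its whole list, and its median percentile was 71.3 against 37.7 for its peaks alone. Csa08g011090 had 22 to 113 with a median of 39.1, against 33.9 over its list, and a median percentile of 67.4 against 31.7. For both, the peaks at these positions were thus in the upper part of the list. For Csa13g019570 the median percentile was 61.7 against 40.6, and for Csa01g013850 it was 55.1 against 36.5. At positions with 4 factors the median percentile was already 70.0 for Csa13g021450 and 66.4 for Csa08g011090. It was 58.6 there for Csa13g019570 and 54.5 for Csa01g013850. For each of these named factors, most of the difference from peaks alone was thus already present at positions with 4 factors.

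In 3 lists the peaks at these positions were weaker than those found alone. Csa04g023980 had signals of 24 to 559.4 with a median of 44.7, against 55.9 over its list, and a median percentile of 37.6 against 50.2 alone. Csa13g011780 had a median percentile of 46.4 against 50.4, and Csa05g079950 45.1 against 55.1.

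The −log10 of q of the peaks was close to that of all peaks. It was under 3 for 1005 of the 6709 peaks (14.98%), against 12.9% of all peaks, and its median was 8.02 against 7.57. No list has a value under 2. The median by number of factors was 8.27 for 5 factors, 7.81 for 6, 6.68 for 7, 5.50 for 8, 5.09 for 9 and 4.35 for 11. The median signal percentile followed no such order, with 58.6, 58.1, 66.5, 51.3, 70.9 and 70.8 for 5, 6, 7, 8, 9 and 11 factors. Positions with more factors also tended to hold peaks of short lists more often: at least 1 such peak was present at 18.98% of positions with 5 factors, 35.2% with 6, 66.7% with 7 and 45.5% with 8, and at 6 of the 7 positions with 9 or 11. The same climb was seen below the threshold, with 0.462%, 1.43%, 3.90% and 8.72% for 1, 2, 3 and 4 factors. Part of it is built in, since each added factor is another chance of a short list.

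The positions differed by how many factors with short lists they held. The limit of 2000 peaks for a short list was set with the lengths known. No such factor was present at 917 positions (75.7%), 1 was at 205, 2 were at 48 and 3 or more at 41 (3.39%). Over all 555003 positions, 56 had 3 or more, so 41 of these 56 (73.2%) had at least 5 factors. Outside the threshold they were 9 of the 4367 positions with 4 factors and 6 of the 20103 with 3. A position with 3 short-list factors already holds at least 3 factors, so the 73.2% is high by construction. Such positions made up 19 of the 69 with 7 or more factors (27.5%), against 22 of the 1142 with 5 or 6 (1.93%). Of the 7 positions with 9 or 11 factors, 6 were among them. More factors leave more room for short lists, so part of this rise is also built in.

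Positions with 3 or more short-list factors were narrower and held peaks higher in their lists. The first and last summits lay a median of 94 bp apart, against 135 bp with 2 short-list factors, 152 bp with 1 and 159 bp with none. All summits were within 100 bp at 23 of the 41 positions (56.1%), against 167 of 917 (18.2%) with no short-list factor. The peaks of longer lists had a median percentile of 71.1 at these 41 positions (117 peaks), against 58.0 at the 917 (4989 peaks). The mix of longer lists behind these medians differs and was not matched, so they do not compare the same lists. The short-list peaks had a median percentile of 85.1 (163 peaks). The −log10 of q over all peaks was lower, with a median of 4.56 at the 41 positions against 8.72 at the 917. The 4.56 pools 163 short-list and 117 longer-list peaks, while the 8.72 is of longer lists only. It was not split by list length, so the medians do not compare like peaks.

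The pair that dominated elsewhere was nearly missing from these 41 positions. Csa01g013850 and Csa13g019570 were each at 1 of them and at no position together, against 714 of the 917 positions (77.9%) with no short-list factor. A position with 3 short-list factors needs only 2 others to reach 5. Some longer lists had a higher share there than at the remaining positions with 5 or more factors: Csa06g004330 was at 26 of the 41 (63.4%, against 38.3%), Csa04g012470 at 19 (46.3%, against 37.1%) and Csa11g072230 at 10 (24.4%, against 14.4%). Csa02g073390 was at 17 (41.5%, against 48.9%) and Csa06g051300 at 16 (39.0%, against 46.6%). Csa13g011780 was at 2, Csa08g011090 at 2 and Csa13g021450 at 1. Among the short lists Csa10g008930 was at 32, Csa18g003140 at 26, Csa11g015700 at 25, Csa04g050690 at 24 and Csa02g060070 at 22. All 10 positions of Csa11g037200 and all 7 of Csa19g005080 were among the 41.

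**Figure D4:**
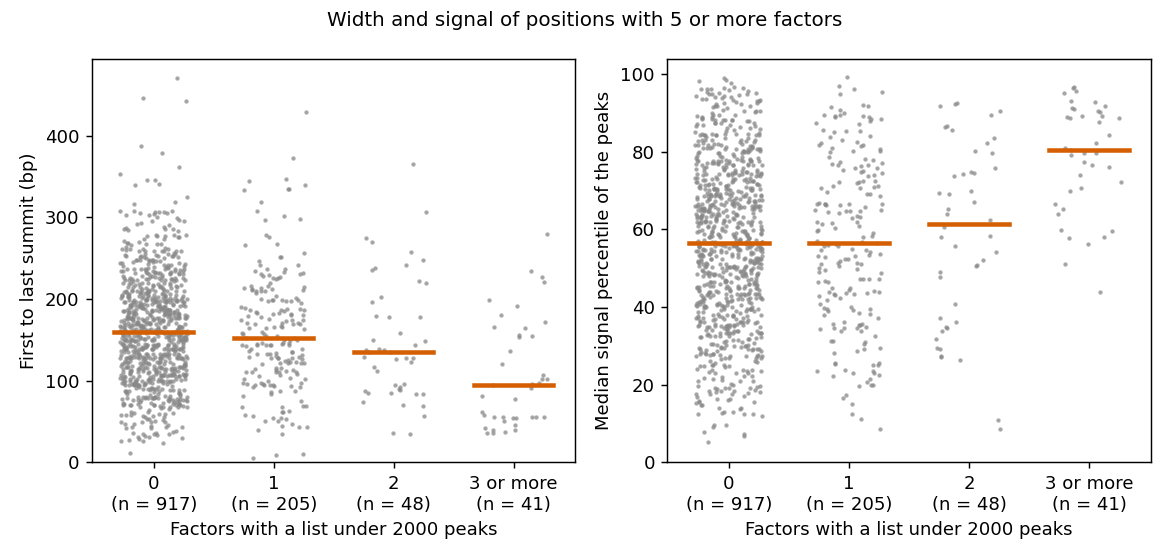
Distance from first to last summit in bp (left) and median signal percentile of the peaks (right) of each position with 5 or more factors, by how many of its factors have a list under 2000 peaks; each point is a position and the bars are medians. From none to 3 or more such factors the median distance runs 159, 152, 135 and 94 bp, and the median percentile 56.5, 56.4, 61.4 and 80.6.

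The 12 positions with most factors were described singly; ties were ordered by the median signal percentile. The first lies at chr11:29071402-29071623, with 13 summits of 11 factors, 6 of them with short lists. At this position 7 factors had summits within 20 bp of each other. These were Csa06g051300, Csa02g060070, Csa04g012470, Csa04g050690, Csa11g015700, Csa18g003140 and Csa09g088620. The signal of Csa02g060070 was 153, rank 2 of its 1185 peaks, and that of Csa04g050690 was 89, rank 3 of 278. Csa11g015700 had 55.9, rank 8 of 211, Csa18g003140 had 89, rank 39 of 1089, and Csa09g088620 had 225, rank 258 of 24765. High-ranking peaks of several short lists thus fell on the same 20 bp. Both summits of Csa04g023980 there were weak, with signals of 25.6 and 40.9 at percentiles 2.98 and 32.0.

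The second position with 11 factors, chr11:23987751-23987801, was only 50 bp wide. It held Csa02g060070, Csa04g050690, Csa10g008930, Csa11g015700 and Csa11g037200 from short lists, and Csa02g073390, Csa06g051300, Csa08g011090, Csa09g088620, Csa11g072230 and Csa13g021450 from longer ones. Its peaks ranged widely within their lists, with a median percentile of 58.1. Csa09g088620 had a signal of 51 at percentile 8.11, and Csa04g050690, the highest, had 40 at percentile 86.9. The −log10 of q ran from 2.23 to 12.1. At this position close spacing thus came without high signal in most lists.

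At chr15:8017990-8018087, 9 factors met over 97 bp with a median percentile of 95.7, the highest of the 12. Csa02g073390 had a signal of 253.9 there, rank 44 of its 129638 peaks. Csa11g072230 had 93.3, rank 30 of 8083, Csa10g008930 had 85, rank 29 of 1778, and Csa02g060070 had 77.4, rank 21 of 1185. Of the 41 positions rich in short lists, only this position held Csa13g019570, whose signal was 81.3 at percentile 46.2. At chr18:7288940-7288994 (54 bp) and chr4:14624941-14625077 (136 bp), 6 of 9 factors had short lists, and the shared ones were Csa02g060070, Csa04g050690, Csa05g079950, Csa11g015700 and Csa11g037200, with Csa02g073390 and Csa04g012470 from long lists. At chr14:21136218-21136258, the narrowest of the 12 at 40 bp, 6 of 8 factors had short lists, and 7 factors lay within 20 bp.

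The 3 positions with no short-list factor spanned 303, 247 and 74 bp. At chr9:24859402-24859705, all 9 factors came from longer lists and the summits were spread over 303 bp. Csa08g011090, Csa13g019570, Csa13g021450 and Csa01g013850 lay within 8 bp at one end, with signals of 32, 243.7, 67 and 131.8. The summits of Csa06g051300, Csa13g011780 and Csa02g073390 followed at 139, 203 and 303 bp from the first. Here the largest number of factors within 100 bp was 6. Chaining thus made a single position of a close group and further summits in a row.

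At chr19:15874962-15875209 the 8 factors likewise came from longer lists, and no more than 5 lay within 100 bp. Csa01g013850 and Csa13g019570 had a summit on the same base, with signals of 177.1 and 85.1. Only 4 of 8 factors lay within 100 bp at chr17:28009903-28010144. That position held rank 33 of the 47458 peaks of Csa06g051300, with a signal of 543 and a −log10 of q of 140.72, and Csa01g013850 with 299 at percentile 99.0. At chr18:7724298-7724372, by contrast, 8 factors from longer lists lay within 74 bp. Of the other 2, chr8:14246276-14246510 held 9 factors over 234 bp, 4 with short lists, and chr9:21533099-21533306 held 8 over 207 bp, 1 with a short list.

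**Figure D5:**
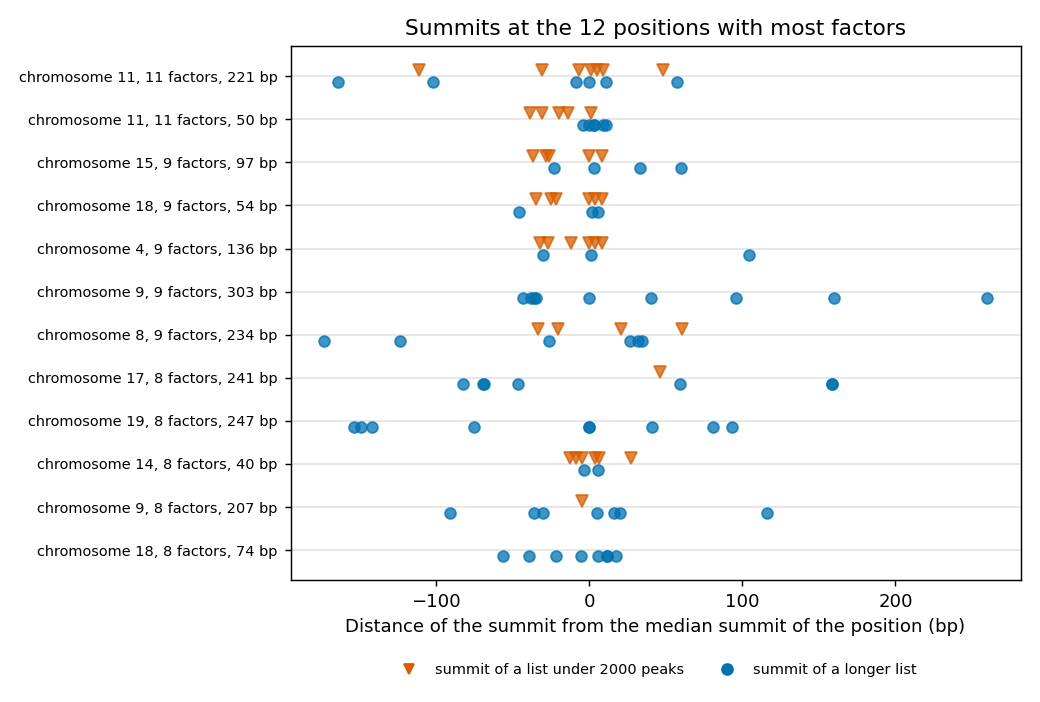
Summits at the 12 positions with most factors, as distance in bp from the median summit of the position; triangles are summits of lists under 2000 peaks and circles those of longer lists, and the label gives chromosome, number of factors and width. The rows with 5 or more triangles span 40 to 221 bp, and the 3 rows of circles alone span 303, 247 and 74 bp.

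The positions were spread over all 20 chromosomes, and the Wilson interval of each chromosome's share included the share over the genome. Their share of all positions on a chromosome ran from 0.182% on chromosome 4 (49 positions) and 0.183% on chromosome 13 (41) to 0.240% on chromosome 20 (64) and 0.256% on chromosome 9 (87). The 95% Wilson interval of chromosome 4 was 0.138% to 0.241% and that of chromosome 9 was 0.207% to 0.315%, so both included the overall 0.218%. Chromosome 11 had most, with 106 positions (0.226%), and also has most positions of any kind (46816). In the 3 subgenomes of the hexaploid, as usually assigned to chromosomes, the shares were 0.220%, 0.215% and 0.219%. The 41 positions rich in short lists lay on 17 chromosomes, with 5 on chromosome 11 and none on chromosomes 13, 17 and 20.

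Neighbours were rare. The median distance to the next position on a chromosome was 348446 bp, and 50 of 1191 distances were under 10000 bp. The longest row with distances of at most 10000 bp held 5 positions over 17997 bp, at chr11:29066256-29084253, and includes the position with 11 factors and 13 summits. Of these 5, 4 held 3 or more short-list factors, and their median signal percentiles were 90.3, 91.1, 51.2 and 92.8. The other position, at the start of the row, held 6 factors and 2 short-list factors, with a median percentile of 86.5. By windows of 1 Mb, chromosome 11 from 29 to 30 Mb and chromosome 20 from 23 to 24 Mb had most, with 8 positions each, and 95 of 620 windows had none.

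The factors that met in the DAP-seq lists were not all detected in seeds. Levels are given as CPM, counts scaled to the library total. Csa01g013850, at 909 positions, and Csa09g088620, at 432, had no count in any seed library, where 3 counts over an age would be 0.0224 to 0.0303 CPM. At least 1 of the pair was at 1044 of the 1211 positions (86.2%). At positions with 4 factors Csa01g013850 was already at 66.3% and Csa09g088620 at 24.0%, and over all positions they were at 14.2% and 4.45%. The share of such positions with at least 1 of the pair was not computed, and the reason for the 86.2% was not tested. Csa13g019570, at most positions, had 0.235, 0.131 and 0.314 CPM at 11 DPA, with a mean of 0.226 ± 0.0919 (SD, n = 3). By contrast 16 of the 20 factors had a mean of at least 1 CPM at some age. Of the 1211 positions, 175 (14.5%) held 5 or more of these 16. The share of all genes that reach 1 CPM was not computed, so neither count is a result about these positions.

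Seed levels of the factors with short lists differed widely. Csa10g008930 had 0.0639, 0.178 and 0.0907 CPM at 5 DPA, 0.387, 0.226 and 0.261 at 8 DPA and 5.25, 3.90 and 3.65 at 11 DPA. Csa04g050690 had 20.0, 18.4 and 18.5 CPM at 5 DPA, 22.8, 22.2 and 22.6 at 8 DPA and 22.9, 22.0 and 25.1 at 11 DPA. Its 8 and 11 DPA values overlapped. Csa11g037200, with 45 peaks, had the highest seed level of the 20 factors in CPM, with means of 60.1 ± 3.13, 71.5 ± 3.03 and 71.1 ± 8.87 at 5, 8 and 11 DPA (SD, n = 3 each). Csa19g005080, with 13 peaks, had means of 0.271 ± 0.160, 0.235 ± 0.0952 and 0.512 ± 0.116 CPM. CPM do not correct for gene length, so these levels rank counts and not molecules. Ages were not tested, and seed messenger RNA does not show whether a factor meets DNA at these positions in seeds.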

How the data were processed

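Going by the names of the deposited lists, peaks were called with GEM. For each peak the authors give a score of at most 1000, a signal whose unit is not stated, and the −log10 of its p and of its q. Peaks were 201 bp wide except 2, and the position the authors list per peak was taken as the summit. Whether duplicates were pooled, the build and what each tool did are stated by no source used here. Tools named per the submitters' processing notes were HISAT2 2.0.4, Bowtie2 2.3.4.1, Trimmomatic, FastQC and bcl2fastq 2.20.0.

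Signal percentiles are ranks within a list (ties averaged). The joining of summits was tested on made-up lists with planted positions. No comparison was tested, since each factor has 1 list and the rule itself uses the peaks. The authors deposited raw counts for each gene and run; runs were summed, except that the resequenced column of 5 DPA replicate 1 equals that of replicate 2 in all 89418 genes and was counted with replicate 2 only (chi-square per degree of freedom 1.34 against its first run, 9.39 for replicate 1). Whether seed replicates came from separate plants is not stated beyond the label of biological replicates. The deposited gene lengths (another column, in bases) were not used.

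The members and lists were chosen with earlier results of these data known. Named were all 20 factors, the 12 positions with most factors, the 10 most frequent pairs, the 5 most frequent combinations and the 2 highest and 2 lowest chromosomes; other items were picked after their values were seen. Subgenomes were assigned from general knowledge of the species. Alternatives tried were gaps of 50 and 200 bp, positions within 100 bp, the higher-scoring 50% of each list, lists of at least 50 peaks, merged pairs, each list left out, other minimums, other ranks, other chromosome backgrounds, other seed limits, the first run alone and each seed replicate left out. Python 3.11.15, NumPy 2.4.6, pandas 2.3.3, SciPy 1.17.1 and Matplotlib 3.10.9 were used.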

Additional observations from a re-analysis of the deposited data

How the results depend on the processing

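The number of positions depended on the joining and on a few lists. It was 330 with a gap of 50 bp, 4045 with 200 bp, 249 where all summits had to lie within 100 bp, 371 with 5 factors in a single 100 bp window, 210 with the higher-scoring 50% of each list, 448 with both close pairs counted as 1 factor each, 553 with only Csa01g013850 and Csa13g019570 so counted, 5578 with a minimum of 4 factors and 268 with a minimum of 6. Leaving out each list in turn gave 453 to 1209 positions, and 4 of the 20 lists moved it by over 1.5 times (Csa13g019570, Csa01g013850, Csa02g073390 and Csa06g051300). It was 1207 with lists of at least 50 peaks and 984 without the 8 short lists. The settings that gave 371, 553 and 984 were chosen after seeing the data. The share of the most frequent factor was 71.2% with a gap of 50 bp and 72.9% with the higher-scoring 50%, for Csa13g019570 in both. With both pairs merged, Csa02g073390 led with 65.2%. Leaving out each list gave 58.9% to 81.6%. Csa13g019570 led in each except without Csa01g013850, when Csa02g073390 led (60.6%), and without its own list, when Csa06g051300 led (58.9%). The median width was 75 bp and 320 bp with gaps of 50 and 200 bp, and the median signal percentile 66.1 and 54.6; ranked by −log10 of q it was 62.0. The positions with 5 or more seed-detected factors were 336 at a limit of 0.1 CPM, 20 at 5 CPM and 6 at 1 CPM in every age, and 175 without each of the 9 seed libraries. The cause of these changes was not tested beyond what each setting leaves out or joins. The shares of the 3 subgenomes moved by less than their intervals under both other backgrounds. No search for motifs was made, since no genome was at hand. No paired analysis was possible because no result comes from a test. Peak lists give no read depth, so how depth limits each list is unknown.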
